A study of Mus musculus with 32 samples.

Results

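The genes of ER translocation and COP vesicle transport were followed between the dendrites and the soma of single mouse hippocampal neurons. Members were chosen by symbol: the Sec11, Sec13, Sec22, Sec23, Sec24, Sec31, Sec61, Sec62 and Sec63 genes, and the Srp, Srpr, Ssr, Spcs, Rpn, Cop, Tmed and Arf genes. The rule found 65 of the 44081 genes in the table of 3′UTR counts, after 1 symbol of a pseudogene was set aside, and used no measured value. Of these, 58 were detected (1 read or more) in 16 or more of the 32 libraries and entered the comparison of compartments, with 10880 genes tested in all. Another 4, Srp54a, Srp54c, Tmed6 and Tmed11, had no read in any library in this table of 3′UTR counts. Such a count of 0 allows up to 3 reads in each by counting error alone. In the separate counts on single 3′ ends, 1 of the 2 ends counted for Srp54c had reads, while Srp54a, Tmed6 and Tmed11 had none. The remaining 3 missed the filter: Srp54b had reads in 10 somas and 3 dendrites, Copz2 in 4 somas and 7 dendrites, and Sec31b in 2 somas and 6 dendrites. Srp54a, Srp54b and Srp54c are close copies of each other and the authors counted only uniquely mapped reads, so their values are uncertain.

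The study asked which RNAs reach the dendrites of a neuron. Hippocampal neurons of C57BL/6 mice were taken at embryonic day 18 and kept in culture for 15 days without further treatment, and the dendrites of 16 isolated neurons were cut off with a micropipette and collected apart from the soma of the same cell. The 2 groups are therefore 16 dendrite samples and 16 soma samples, paired by neuron. Polyadenylated RNA was amplified linearly in 3 rounds for 4 neurons and in 2 rounds for 12. Each dendrite sample pools the dendrites of 1 cell, and a cultured neuron stands in for neurons of the hippocampus only in part. The neurons came from several cultures, but which neuron came from which culture is not given in the sources used here.

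Secreted and membrane proteins enter the secretory pathway at the endoplasmic reticulum (ER). The signal recognition particle binds the signal peptide as it leaves the ribosome and docks at its receptor on the ER, and the chain then passes through the Sec61 channel, beside which the TRAP complex sits. Signal peptidase removes the signal peptide and the ribophorins, subunits of oligosaccharyltransferase, take part in adding sugar chains. COPII-coated vesicles carry cargo from the ER towards the Golgi, COPI-coated vesicles carry it back and within the Golgi, p24 proteins of the Tmed family select cargo for both, and small ARF GTPases recruit the COPI coat. In neurons ER and vesicles of this pathway extend into dendrites, where receptors and channels can be made and delivered locally.

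The dendrite libraries held 646521 to 6954420 reads on 3′UTRs (median 1605714), and the soma libraries 925525 to 21169974 (median 6165691). Genes with at least 10 reads numbered 1570 to 9871 per dendrite library and 6041 to 12185 per soma library. The dendrites of neurons 15 and 16 stood apart, with 1570 and 2485 such genes and with 35.8% and 32.4% of reads on mitochondrially encoded genes, against a median of 13.5% over all dendrites and 1.05% over all somas. The main counts and medians that follow are also given without them. Neuronal markers (6 genes) had a summed level of 3047 to 13430 CPM (counts per 1000000 library reads, TMM-scaled) in dendrites and 3353 to 12033 in somas. Of the transmitter markers, the 3 GABAergic genes had median sums of 4033 CPM in dendrites and 9639 CPM in somas. The 5 glutamatergic genes had 213 and 112 CPM, while the labels say only that the cells were hippocampal neurons. The paper reports high expression of neuronal markers in all samples, pyramidal ones (Grin1, Mtap2 and Neurod6 among them) in particular. The type of each neuron was not tested. The 5 astrocyte markers had reads in 15 dendrites and 13 somas, at 0 to 663 and 0 to 146 CPM. The 5 oligodendrocyte markers reached 162 and 134 CPM, the 5 microglial markers 384 and 10.9 CPM and the 4 endothelial markers 44.5 and 129 CPM, with the endothelial marker Cldn5 at 0 in every library. The part of other cells in the values below was not tested.

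Detection and share of reads were compared first. Member genes took 0.0467% to 0.764% of the reads of a dendrite library (median 0.528%) and 0.596% to 0.841% of those of a soma library (median 0.730%). The share was higher in the soma in 15 of 16 neurons, neuron 14 being the exception. With reads of mitochondrially encoded genes left out, the median shares were 0.591% and 0.745% and the soma was higher in 14 of 16 neurons. The median shares of all reads were 0.562% and 0.730% without neurons 15 and 16. Neuron 15 had the lowest dendritic share (0.0467%) and its soma the highest somatic one (0.841%). A dendrite library held reads of 14 to 59 members (median 48) and a soma library of 49 to 60 (median 57.5), and without neurons 15 and 16 a dendrite library held reads of 30 to 59 (median 48). More members were detected in the soma in 14 neurons, fewer in 1 (neuron 5), and as many in 1 (neuron 1). Fewer RNA molecules in the dendrites and fewer molecules captured from them cannot be told apart in such counts.

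**Figure D1:**
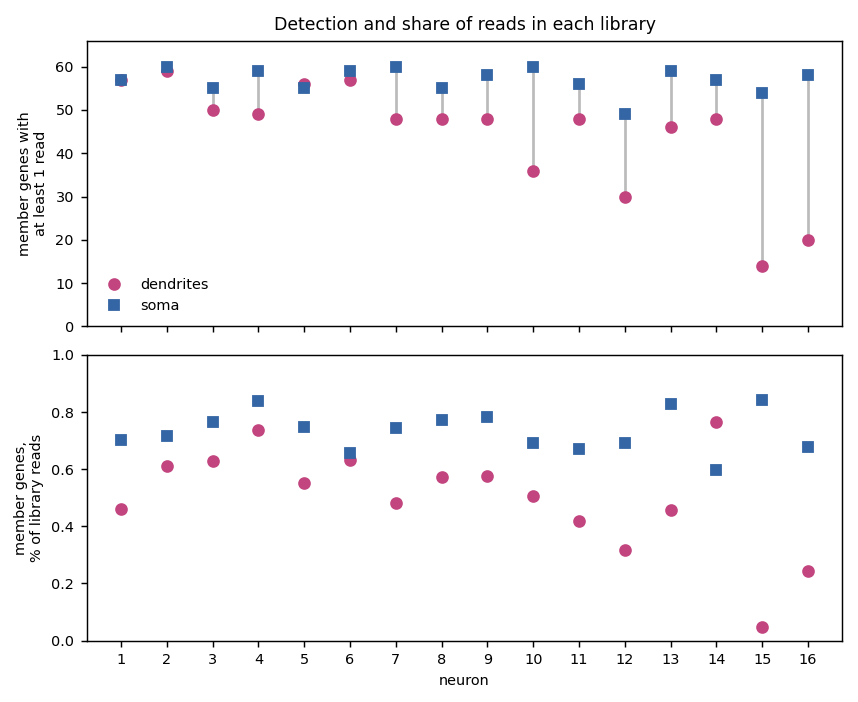
Member genes with at least 1 read (top, number of genes) and the share of library reads on member genes (bottom, %) in the dendrites (circles) and the soma (squares) of each of 16 neurons. The dendrites of neurons 15 and 16 have the fewest members, 14 and 20, and the lowest shares, 0.0467% and 0.245%.

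In the paired comparison 5 of the 58 members were higher in somas and 0 were higher in dendrites (edgeR quasi-likelihood test with neuron as a block, Benjamini-Hochberg adjusted p of at most 0.05 over all 10880 genes). Of all genes tested 5.71% were higher in somas and 0.827% higher in dendrites by the same rule, so 8.62% of the members stands against a background of 5.71%. The genes were Rpn2 and Sec11a of the ER membrane and Sec24c, Sec13 and Sec23ip of the COPII coat. At an unadjusted p below 0.05 there were 22 members higher in somas (37.9%, beside 26.7% of all genes) and again 0 higher in dendrites (beside 3.55%). DESeq2 with the same pairing called 43 members higher in somas, 74.1% of those tested beside 46.2% of all genes, and 0 higher in dendrites. Without neurons 15 and 16, 1 member (Rpn2) passed in edgeR, 1.72% of those tested beside 1.68% of all genes, so the members' share was then that of the background.

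All 58 log2 fold changes, dendrite over soma, were below 0, between -5.72 and -0.06, with a median of -2.12. Over all genes tested 78.8% were below 0 and the median was -1.49. The filter had left out Copz2 and Sec31b, with reads in more dendrites than somas, and Srp54b, with reads in more somas. Without the filter 2 of 61 members were above 0. When the dendrites were rescaled so that the median of all genes was 0, 39 of 58 stayed below 0, with a median of -0.59 and 0 calls. Relative to the median gene in the main fit the members' median was -0.63, and 17 members lay above the median gene. Counted by neuron, 51 members had the higher CPM in the soma in more neurons than in dendrites, 4 (Copa, Srp14, Ssr1 and Tmed8) were level and 3 (Sec11c, Sec24a and Ssr4) had it in dendrites in more neurons. Without neurons 15 and 16 the members' median was -1.57 and that of all genes -1.13, and the medians of the roles described next ran from -3.58 (COPII coat) to -0.61 (TRAP complex).

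**Figure D2:**
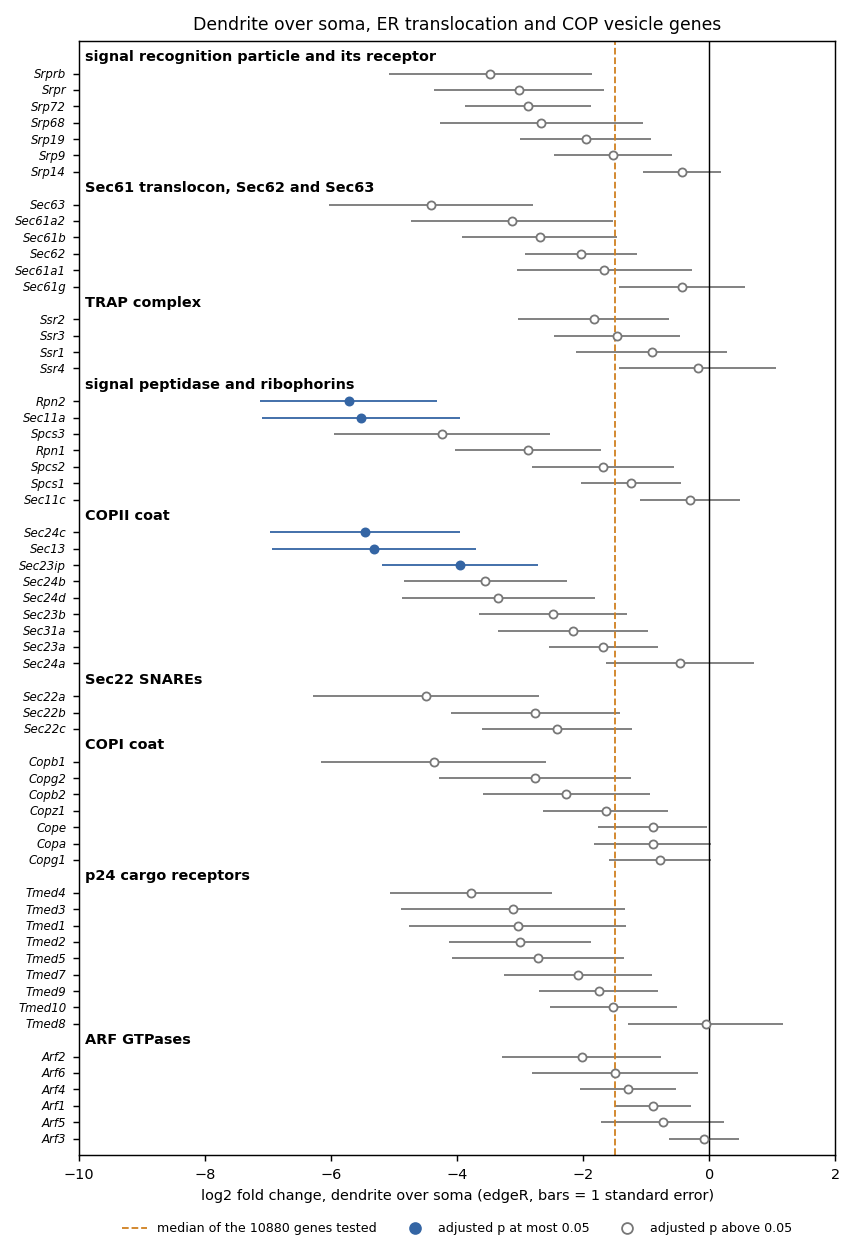
Log2 fold change, dendrite over soma, of the 58 members tested, grouped by role, with bars of 1 standard error (edgeR, 16 neurons). Filled points passed an adjusted p of at most 0.05, and the dashed line is the median of the 10880 genes tested, -1.49. All points lie below 0, 17 of them above the dashed line.

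Of the signal recognition particle and its receptor, 7 of 10 members were tested and none passed, with a median log2 fold change of -2.67. Srp14, which with Srp9 forms the domain that slows elongation, ran from 0 to 1250 CPM in dendrites (median 447) and from 198 to 1011 CPM in somas (median 529). Dendrites held more in 8 neurons and the soma in 8, and the log2 value of -0.43 (SE 0.62, adjusted p = 0.63) was 1.11 after rescaling. Srp9 had medians of 58.9 CPM in dendrites and 130 CPM in somas, with ranges that overlapped. Srp72, a core protein of the particle, had a median of 28.2 CPM (0 to 179) in dendrites and 143 CPM (4.91 to 255) in somas, with the soma above the dendrites in 14 of 16 neurons, yet at -2.88 (SE 1.00) its adjusted p of 0.065 missed the threshold. Srprb, the membrane-anchored receptor subunit, was the lowest of the group at -3.47 (SE 1.61, adjusted p = 0.14).

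The 6 genes of the Sec61 translocon, Sec62 and Sec63 had a median of -2.37, and none passed. Sec63, a membrane protein that brings the chaperone BiP to the channel, was found in 12 dendrite and 14 soma libraries, with medians of 1.56 and 36.7 CPM (-4.41, SE 1.62, adjusted p = 0.076). Sec61g, a small subunit of the channel, had medians of 44.7 CPM in dendrites and 42.7 CPM in somas (-0.44, SE 1.00, 1.10 after rescaling). Sec62, which helps short and post-translational substrates through the channel, had the higher soma value in 14 of 16 neurons, with medians of 95.8 and 194 CPM (-2.04, SE 0.89, adjusted p = 0.12). The channel subunits Sec61b and Sec61a2 had log2 fold changes of -2.69 and -3.13. The 4 members of the TRAP complex, Ssr1 to Ssr4, had none at an unadjusted p below 0.05 and a median of -1.19, and 3 of the 4 lay above the median gene. Ssr4 was the highest at -0.19 (SE 1.25) and Ssr2 the lowest at -1.83 (SE 1.19), with Ssr1 at -0.91 and Ssr3 at -1.46. After rescaling Ssr1, Ssr3 and Ssr4 were above 0.

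Signal peptidase and the ribophorins (7 members, median -2.88) held 2 of the 5 calls. Rpn2 (chr2:157279017-157326319 in GRCm38, a protein-coding gene), encoding ribophorin II, was at 35.0 to 380 CPM in somas (median 156) and at 0 to 637 CPM in dendrites (median 1.37). All somas had reads, against 10 of 16 dendrites, but the dendrites of neurons 8 and 9 exceeded every soma, so the groups overlapped. The soma had the higher level in 14 of 16 neurons, and the log2 fold change was -5.72 (SE 1.41, adjusted p = 0.016 in edgeR's quasi-likelihood test). The mean levels differed less, 99.7 ± 210 CPM in dendrites and 190 ± 110 CPM in somas (SD, n = 16), and without the block the log2 fold change was -0.93. Rpn2 passed in edgeR without neurons 15 and 16 as well, at -4.62 (adjusted p = 0.0495), and on exon counts at -5.27, but not after rescaling (-4.25, adjusted p = 0.064).

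Sec11a and Sec11c encode alternative catalytic subunits of signal peptidase, and their values differed. Sec11a (chr7:80904889-80947780) had reads in 6 dendrites and 14 somas, at 0 to 124 CPM (median 0) and 0 to 92.6 CPM (median 27.7), with more in the soma in 12 neurons and more in dendrites in 2 (-5.52, SE 1.57, adjusted p = 0.030 in edgeR). Its highest dendritic level, in neuron 9, exceeded every soma. Sec11c was detected in 15 dendrites and 16 somas, its medians being 161 CPM (0 to 1878) and 242 CPM (2.00 to 668), and dendrites exceeded the soma in 9 of 16 neurons (-0.30, SE 0.79, 1.24 after rescaling). The difference between the 2 paralogs was not tested. Sec11a missed the threshold without neurons 15 and 16 (-4.88, adjusted p = 0.092). The noncatalytic subunit gene Spcs1 had medians of 164 and 239 CPM (-1.23, SE 0.79), and Rpn1, encoding ribophorin I, 76.6 and 195 CPM (-2.88, SE 1.16, adjusted p = 0.098).

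**Figure D3:**
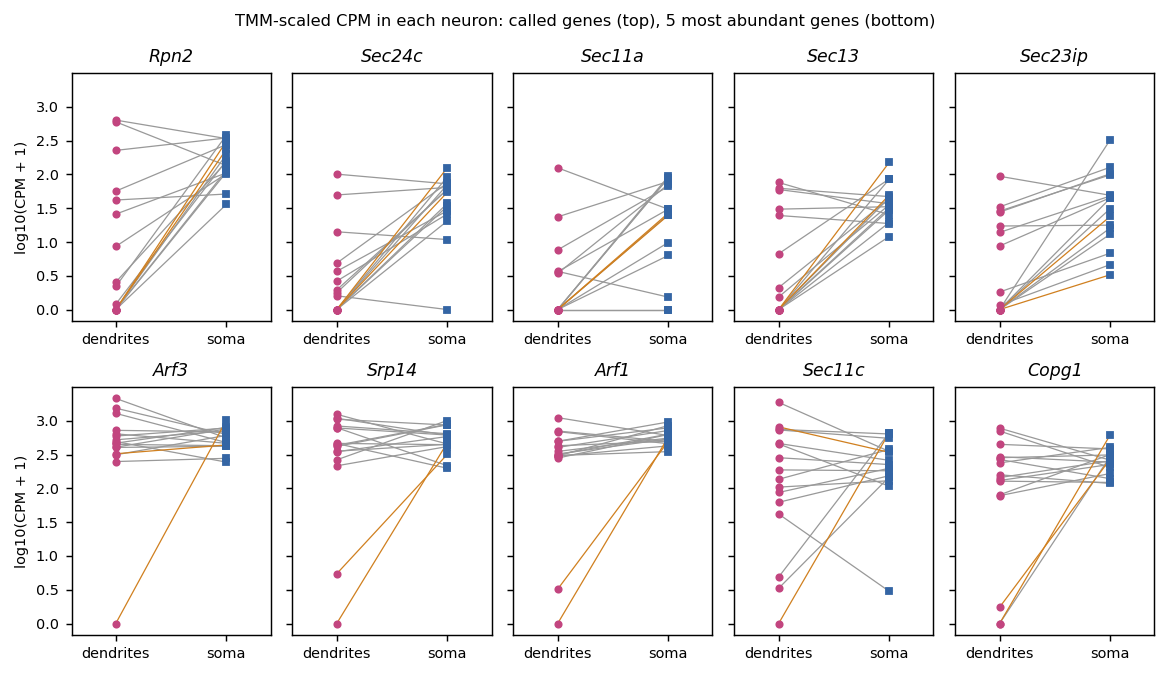
TMM-scaled CPM, as log10(CPM + 1), in the dendrites (circles) and the soma (squares) of 16 neurons joined by lines, for the 5 members called (top) and the 5 with the highest mean level (bottom). Lines of neurons 15 and 16 are orange. For the called genes several dendrites sit at 0 while others overlap the somas, and for Srp14 and Arf1 the dendrites other than those of neurons 15 and 16, and for Arf3 those other than neuron 15, overlap the somas.

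The COPII coat (9 of 10 members tested) had the lowest median of the groups, -3.34, and 3 of the 5 calls. Sec24c (chr14:20674308-20694852), which binds cargo in the inner coat, had medians of 0.69 CPM (0 to 100) in dendrites and 56.1 CPM (0 to 125) in somas, the soma being above the dendrites in 13 of 16 neurons (-5.46, SE 1.5, adjusted p = 0.025 in edgeR). Sec13 (chr6:113728062-113740743), an outer coat protein that is also a nuclear pore component, had medians of 0.27 CPM (0 to 75.1) and 35.2 CPM (11.1 to 150) and was higher in the soma in 12 neurons (-5.32, SE 1.62, adjusted p = 0.039 in edgeR). Sec23ip (chr7:128744943-128784836), a Sec23-interacting protein at ER exit sites, had medians of 0.49 CPM (0 to 93.0) and 36.8 CPM (2.27 to 325) and was higher in the soma in 15 neurons (-3.96, SE 1.24, adjusted p = 0.044 in edgeR). In each case somas with low values and dendrites with high ones overlapped. Without neurons 15 and 16 none of the 3 passed, with adjusted p of 0.079, 0.12 and 0.10.

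Paralogs within the COPII coat ran from the called genes to values near 0 on 3′UTR counts. Sec24a, another cargo-binding paralog, was the only member with reads in all 16 dendrites, at 0.32 to 274 CPM (median 22.5), beside 0 to 193 CPM (median 49.6) in somas. Dendrites exceeded the soma in 9 of 16 neurons (-0.46, SE 1.17, 1.07 after rescaling). On exon counts Sec24a was at -3.26 (adjusted p = 0.17 in edgeR), beside -3.96 for Sec24c. Sec23a and Sec23b, paralogs of the GTPase-activating subunit, were at -1.68 (SE 0.86) and -2.48 (SE 1.18), with higher values in the soma in 15 and 11 neurons. Sec31a, of the outer coat, was at -2.16 (SE 1.19). The Sec22 SNAREs, which act in fusion of ER and Golgi vesicles, had a median of -2.76: Sec22a was at -4.49 (SE 1.79), Sec22b at -2.76 (SE 1.35) and Sec22c at -2.41 (SE 1.19). All 3 had an unadjusted p below 0.05 and none passed after adjustment, the smallest adjusted p being 0.096.

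The COPI coat (7 of 8 members tested) had a median of -1.64, and none passed. Copb1, a beta coat subunit, had reads in 7 dendrites and all 16 somas, at 0 to 112 CPM (median 0) and 4.22 to 91.7 CPM (median 29.4), and the lowest value of the group (-4.37, SE 1.78, adjusted p = 0.10). Copg1, a gamma subunit, had medians of 151 CPM (0 to 778) and 258 CPM (117 to 619) and the highest value (-0.78, SE 0.80, 0.76 after rescaling). Copa, of the outer layer of the coat, was higher in dendrites in 8 neurons and in the soma in 8 (-0.90, SE 0.93), and Copz1 was at -1.64 (SE 0.99). The p24 receptors (9 of 11 tested) had a median of -2.72. Tmed4 was the lowest at -3.78 (SE 1.29, adjusted p = 0.061), with higher values in the soma in 15 of 16 neurons, and Tmed8 was nearest to 0 at -0.06 (SE 1.22, 1.48 after rescaling), with 8 neurons either way. The abundant Tmed10 and Tmed9 were at -1.52 and -1.76.

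The 6 ARF genes had the highest median, -1.09, and 5 lay above the median gene. Arf3 (chr15:98736634-98763214), a Golgi and endosomal ARF abundant in brain, was at 0 to 2147 CPM in dendrites (median 479) and at 244 to 1021 CPM in somas (median 583). It was higher in dendrites in 7 neurons and in the soma in 9, at -0.08 (SE 0.55, adjusted p = 0.93), and 0.10 without neurons 15 and 16. Its dendritic level in neuron 15 was 0, and the other 15 dendrites lay between 249 and 2147 CPM. Arf1, which recruits COPI to Golgi membranes, had medians of 337 and 566 CPM (-0.90, SE 0.60), Arf4 of 94.1 and 180 CPM (-1.29, SE 0.77) and Arf2 of 15.8 and 78.8 CPM (-2.03, SE 1.26). Rescaling put Arf1, Arf3 and Arf4 above 0 at 0.64, 1.46 and 0.25, none of them past the threshold.

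Across the 58 members the log2 fold change was nearer to 0 the higher the mean level, with a Spearman rho of 0.65, beside 0.012 over the 10880 genes. The genes share all 32 libraries, so the value is a description only. The mean level also includes the dendrites, where low counts lower both the level and the fold change. Split by the mean level of all genes tested, 36 members fell in the highest of 3 bands with nearly equal numbers of genes. Their median was -1.65 beside -1.17 for all genes there, and they held 1 call, beside 134 of 3627 genes higher in somas. The 18 in the middle band had a median of -3.63 beside -2.14 and held 4 calls (beside 275 of 3625 genes). The 4 in the lowest band had -3.19 beside -1.23 and held 0 (beside 212 of 3628).

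A gene was counted as present in dendrites when 15 or all 16 of the dendrite libraries held a read of it. Of the 58 members 14 were present (24.1%), beside 16.4% of all genes detected in 15 or more libraries. They were Arf1, Arf3, Arf4, Arf5, Copa, Cope, Sec11c, Sec23a, Sec23b, Sec24a, Sec62, Srp14, Srp72 and Ssr1. When each dendrite library was thinned to the smallest total, 646521 reads, 6 members were present (10.3%, beside 11.4%). At a minimum of 10 reads 1 member was present (1.72%, beside 6.70%), the gene with the most dendrite libraries at that level being Arf3. With neurons 15 and 16 left out, and reads required in at least 13 of 14 dendrites, 29 members were present (50.0%, beside 27.7%).

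Dendritic share is the CPM in dendrites as a percentage of the summed CPM of both compartments of a neuron. The median share of the members was 0% to 44.2% across neurons (median of neurons 27.0%) and that of all genes 0% to 50.0% (median 31.9%). The members' median lay below that of all genes in 10 neurons and above it in 4, and both were 0 in neurons 15 and 16. Without these neurons the medians over neurons were 31.1% and 34.7%. In neurons 10, 12 and 13 the members' median share was 2.39%, 1.68% and 4.98%, beside 6.05%, 16.8% and 18.4% for all genes. In neuron 2, amplified in 3 rounds, it was 44.2% beside 50.0%.

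**Figure D4:**
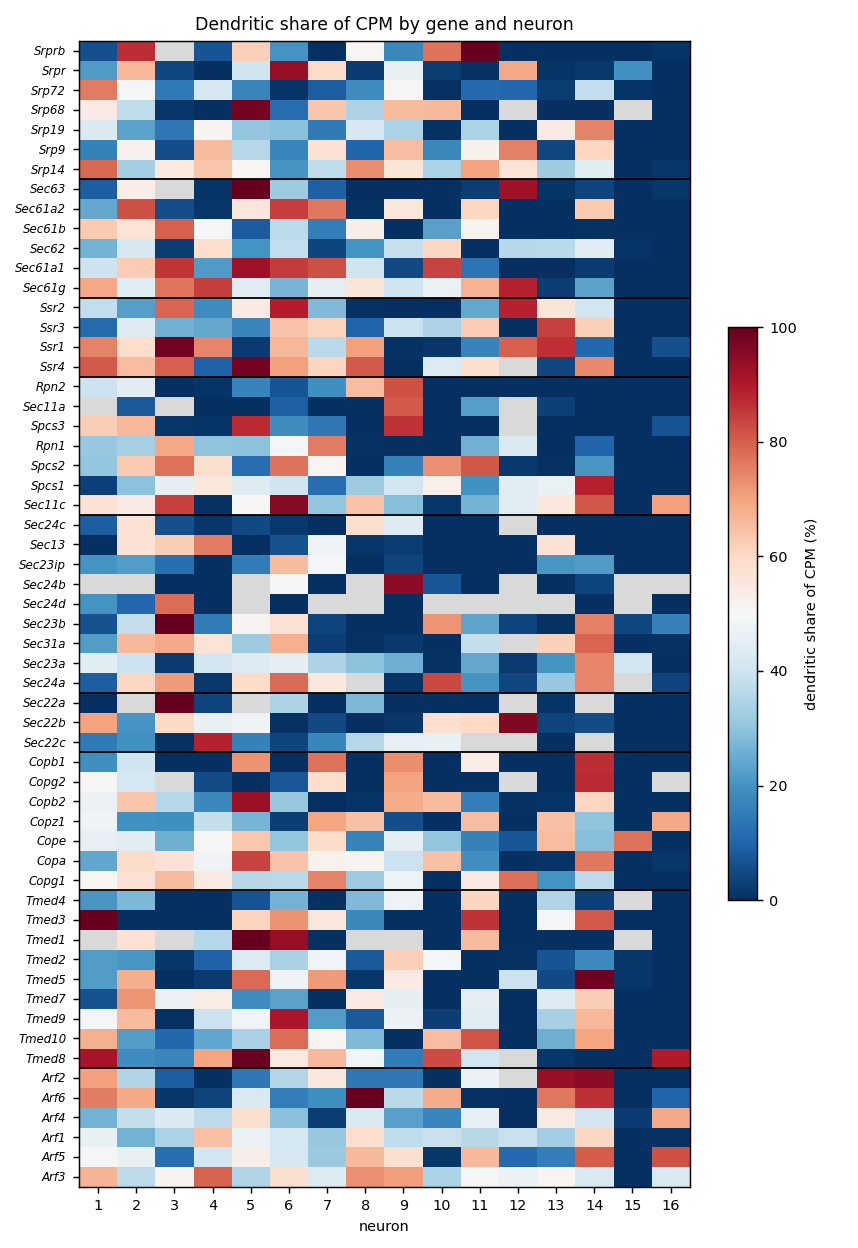
Dendritic share of CPM (%) of the 58 members tested (rows) in 16 neurons (columns), with grey where a neuron had fewer than 10 reads of the gene in both compartments together. Black lines separate the roles, from top to bottom the signal recognition particle and its receptor, Sec61 and Sec62/Sec63, TRAP, signal peptidase and ribophorins, COPII, Sec22, COPI, p24 and ARF. Columns 15 and 16 are mostly at or close to 0%, and columns 10, 12 and 13 hold many low values. Exceptions include Cope (77.1%) in column 15, and Tmed8 (89.7%) and Arf5 (81.7%) in column 16.

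Rounds of amplification are the technical batch that the labels give. In the 12 neurons amplified in 2 rounds the members' median was -2.57 and 4 of 57 passed (Rpn2, Sec11a, Sec13 and Sec24c), beside a median of -1.70 and 306 of 10642 over all genes. In the 4 neurons amplified in 3 rounds the members' median was -1.06 and 0 of 60 passed, with 2 at an unadjusted p below 0.05, beside a median of -0.62 and 1 of 13186 genes higher in somas. Neurons 15 and 16 were both amplified in 2 rounds. In the test of the difference itself 0 of the 10880 genes passed in edgeR, with 288 at an unadjusted p below 0.05. Of the members Sec61b (-4.76 in 2 rounds and 0.90 in 3 rounds, unadjusted p = 0.024) and Sec13 (-6.88 and 0.077, unadjusted p = 0.037) were among these 288.

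Other genes of the early secretory pathway, listed by function, were taken for context: 98 of 104 were tested. In this list 3 were higher in somas (3.06%) and 0 higher in dendrites in edgeR (35 and 0 at an unadjusted p below 0.05), and the median log2 fold change was -1.90. Sec16a, a scaffold of ER exit sites, was at -5.59 (SE 1.52, adjusted p = 0.024 in edgeR), with medians of 0 CPM in dendrites and 22 CPM in somas. Pdia3, a disulfide isomerase of the ER lumen, was at -5.49 (SE 1.54, adjusted p = 0.027 in edgeR), and Bet1, a SNARE of ER to Golgi transport, at -4.29 (SE 1.34, adjusted p = 0.044 in edgeR). In this list 96 of 98 values were below 0. Without neurons 15 and 16 the list's median was -1.39 and 2 were higher in somas.

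The second comparison took the choice of 3′ end within a gene, from counts on the last 500 nucleotides of each end. For each gene the 2 ends with the most reads were used, and the share of the higher-numbered one was compared between the compartments of a neuron. The file numbers these features without positions, so they are named here by number only. Of 3508 genes tested 296 (8.44%) had p below 0.1 in an exact Wilcoxon signed-rank test, and none had an adjusted p of at most 0.05 (159 at an unadjusted p below 0.05). Of 27 members tested 3 were called (11.1%): Copg1, Srp72 and Sec24a.

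For Copg1, feature 7 took 8.33% to 100% of the reads on features 1 and 7 in dendrites (median 72.0%) and 0.175% to 90.0% in somas (median 59.1%). The share was higher in dendrites in 10 of 13 neurons and lower in 3, with a mean difference of 16.5 ± 20.2 percentage points (SD, n = 13, exact p = 0.033, adjusted p = 0.92), on at least 79 reads per library. For Srp72, feature 4 took 0% of the reads on features 1 and 4 in 7 of 10 dendrites, and 0% to 100% in somas (median 15.4%). It was lower in dendrites in 8 neurons, higher in 1 and equal in 1, with a mean difference of -13.8 ± 16.9 percentage points (SD, n = 10, exact p = 0.039, adjusted p = 0.95). For Sec24a, feature 5 ran from 0% to 100% in dendrites (median 85.0%) and from 0% to 37.8% in somas (median 0.128%), with the dendritic share above the somatic one in 5 of 6 neurons and equal in 1 (exact p = 0.0625, adjusted p = 0.95). Its dendritic libraries held as few as 12 reads on the 2 features.

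**Figure D5:**
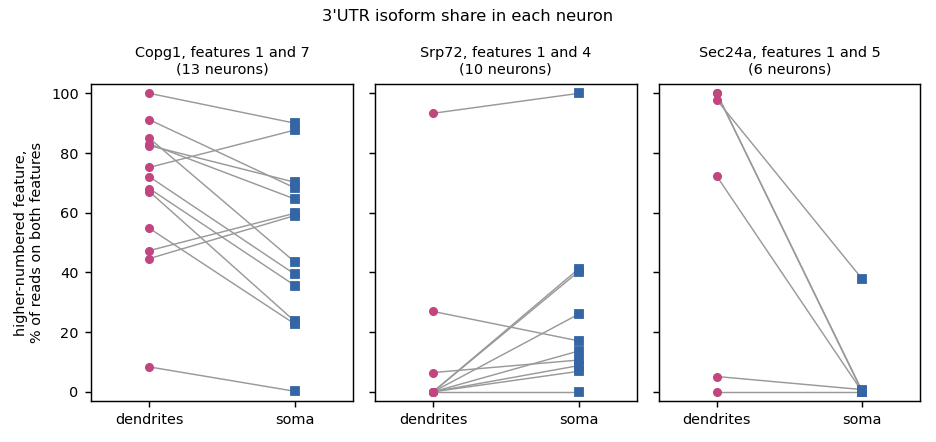
Share of the higher-numbered of 2 3′UTR features (% of reads on both) in the dendrites (circles) and the soma (squares) of single neurons joined by lines, for the 3 members with exact p below 0.1. Copg1 is higher in dendrites in 10 of 13 neurons, Srp72 lower in 8 of 10 and Sec24a higher in 5 of 6.

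Promoter sequence, which the choice by symbol did not use, was also examined. Promoter windows from 250 bases before to 50 bases after the annotated start (RefSeq, GRCm38.p6) were at hand for 55 members and 27025 genes, and were searched on both strands for 2 elements of the ER stress response: the core of the unfolded protein response element, TGACGTGG, and the ER stress response element, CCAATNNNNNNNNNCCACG. The 5 letters CCACG that end the longer element also begin the core read on the other strand. The core was found in 5 of 55 members (9.09%), beside 193 of all genes (0.714%), and the longer element in 0 of 55 (0.137% of all genes). No member holding the core passed in the comparison of compartments. The 5 matches, with the core in capitals (CCACGTCA where it lies on the other strand) and 5 bases either side, are shown because they are what these 5 promoters have in common, while the other members with a promoter window held neither element.
Sec24d, chr3:123267465-123267482, plus strand: gcgccTGACGTGGcacta
Copb1, chr7:114254696-114254713, minus strand: cccttCCACGTCAgccaa
Copb2, chr9:98563719-98563736, plus strand: aagttCCACGTCAgtggg
Arf1, chr11:59228234-59228251, minus strand: ggcgcTGACGTGGctgcc
Sec23a, chr12:59011999-59012016, minus strand: cccttTGACGTGGcagag
The core began 26, 28 and 7 bases before the annotated start in Sec24d, Copb1 and Copb2 and 6 bases after it in Sec23a, and in Arf1 either 84 bases before or 21 bases after it, depending on which annotated start was used. A match describes these letters only, and whether any factor binds there was not tested. Of the 5, Copb1 (-4.37), Sec24d (-3.34) and Copb2 (-2.27) lay below the median gene in log2 fold change, as did Sec23a (-1.68), and Arf1 (-0.90) lay above it.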

How the data were processed

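The authors mapped trimmed paired-end reads to mm10 with STAR (version 2.4.0 in the submitters' processing notes) and counted uniquely mapped, strand-specific reads with VERSE. The deposited tables hold raw counts per gene on the union of its 3′UTRs, counts on the last 500 nucleotides of each 3′ end, and exon counts per sample. Genes detected (1 read or more) in 16 or more of 32 libraries were tested with edgeR 4.0.16 (R 4.3.3; TMM, robust quasi-likelihood test, neuron as block, Benjamini-Hochberg). The pairing is by cell, and deviations from the compartment means correlated by 0.0833 ± 0.0763 within a neuron (SD, n = 16) and -0.00506 ± 0.0534 between neurons (n = 240). DESeq2 1.42.0 was an alternative, with other filters, scalings, exon counts and subsets of neurons. Shares of 3′ ends were compared by an exact two-sided Wilcoxon signed-rank test over at least 5 neurons with at least 10 reads (SciPy 1.17.1), called at p below 0.1. CPM are TMM-scaled counts per 1000000 reads, not divided by length. Coordinates are from GENCODE M21. The scripts were tested on simulated data. No 2 libraries of a compartment were identical.

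Named were all members called in either comparison, the 3 with the highest mean level and those with the highest and lowest fold change in each role, and members outside the fit, with further members named after their values were seen. Members and lists were chosen with earlier results of these data known, and both promoter elements after the files were seen. Intervals and floors cover counting error only, and p-values measure the spread between neurons.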

Additional observations from a re-analysis of the deposited data

How the results depend on the processing

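The number of members higher in somas, 5 in edgeR, depended on the tool and the scaling, and in no setting was a member higher in dendrites past the threshold. It was 43 with DESeq2 and the same pairing (74.1% of those tested, beside 46.2% of all genes). With DESeq2's size factors in edgeR it was 7 (12.1%, beside 9.26%). It was 0 with dendrites rescaled to a median of 0 (beside 0.818%) and 1 without a filter (1.64%, beside 0.460%). With at least 10 reads in 16 libraries it was 2 (3.85%, beside 2.55%), and on exon counts 1 (1.72%, beside 2.62%). In neurons with 2 rounds it was 4 (7.02%, beside 2.88%), and in neurons with 3 rounds 0 (beside 0.00758%). It was 7 without replicate 5 (12.1%, beside 8.93%) and 2 with equal reads within a neuron (3.51%, beside 2.78%). Without neurons 15 and 16, an alternative chosen after seeing the data, it was 1 (1.72%, beside 1.68%). The numbers of the neurons pair the samples since both compartments came from the same cell. With no replicate block 0 members passed (beside 0.708% of all genes) and the members' median was -0.59. The median stayed below 0 in every setting run, between -2.57 in neurons with 2 rounds and -0.59. Members present in dendrites, 14, numbered 1 at a minimum of 10 reads, 6 after thinning and 29 without neurons 15 and 16. Members called for their 3′ ends, 3 of 27 (beside 296 of 3508 genes), numbered 6 of 30 at a minimum of 5 reads (beside 353 of 3986). They numbered 2 of 23 at a minimum of 20 reads (241 of 2985) and 2 of 20 in neurons with 2 rounds (222 of 2767). Without replicate 5 they numbered 4 of 25 (292 of 3353), and without neurons 15 and 16, 3 of 27 (277 of 3437). With sign-flip permutation they numbered 4 of 27 (294 of 3508).

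Of the members named by rule, those whose log2 fold change was above 0 in a setting are given here, beside the number above 0 among all members tested. With dendrites rescaled 19 were above 0, among them Arf1 (0.64), Arf3 (1.46), Arf4 (0.25), Copa (0.64), Copg1 (0.76), Sec11c (1.24), Sec24a (1.07), Sec61g (1.10), Spcs1 (0.30), Srp14 (1.11), Srp9 (0.016), Ssr1 (0.62), Ssr3 (0.075), Ssr4 (1.34), Tmed10 (0.016) and Tmed8 (1.48). In neurons with 3 rounds there were 15, among them Arf3 (0.69), Copg1 (0.55), Sec13 (0.077), Sec22b (0.11), Sec31a (0.37), Sec61b (0.90), Sec61g (1.42), Srp14 (0.64), Ssr1 (2.18), Ssr4 (0.83) and Tmed8 (0.11). With at least 10 reads there were 4, Arf3 (0.24), Sec11c (4.3e-05), Ssr4 (0.14) and Tmed8 (0.26), on exon counts 5, among them Arf3 (0.22), Sec11c (0.057), Ssr4 (0.19) and Tmed8 (0.35), and with no replicate block 5, among them Arf3 (0.18), Sec11c (0.26), Sec61g (0.087) and Tmed8 (1.07). With equal reads there were 4, Arf3 (0.32), Sec11c (0.029), Ssr4 (0.21) and Tmed8 (0.31), and without neurons 15 and 16 there were 3, Arf3 (0.10), Sec61g (0.016) and Ssr4 (0.46). Without a filter 61 members were tested, Copz2, Sec31b and Srp54b among them, and 2 were above 0. Neither was a member of the main fit named by rule. None of these values passed the threshold, and the cause was not tested.

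With changes of 4 on the log2 scale put into counts simulated at these depths and this spread between neurons for dendrite against soma, 29 of 91 genes were called, and with changes of 2, 4 of 91. Which of depth and spread limited the calls was not tested.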
